A study of Mus musculus with 13 samples.

Results

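Antiviral interferon-stimulated genes encode the sensors, effectors and regulators with which a cell meets a virus. The set described here was chosen by name, with earlier results of these data known, so no test of the whole set was run. It holds 49 genes. Of these, 48 had a probe in the scanner files and 47 gave a signal that could be tested, among 20546 genes tested in all. The signal of Dtx3l was not analysed here, though its promoter window was searched, and the only probe of Oas1g was well above background on 4 of 13 arrays and did not pass the filter on dim probes. RNA came from macrophages grown from bone marrow of male C57BL/6J mice aged 12 to 16 weeks, in 30% L929 conditioned medium for 6 days, and was hybridised to 13 Agilent arrays, each with a single dye. Control cells carried Hdac3 with exons 4 to 7 between loxP sites and no Cre is named for them. Knockout (KO) cells carried the same floxed gene and Cre recombinase under the lysozyme M promoter, which is active in myeloid cells, so HDAC3 loss and the presence of Cre cannot be told apart. For 24 hours the cells of each genotype were kept with 10 ng/mL of interleukin-4 (IL-4) or with its vehicle, which was 0.1% bovine serum albumin. There were 4 arrays of control cells in vehicle, and 3 each of KO cells in vehicle, control cells in IL-4 and KO cells in IL-4. Nothing in the labels ties the arrays to different mice or dishes. The p-values therefore cover the variation among these arrays alone, and that variation could be technical.

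Type I interferon binds a receptor made of Ifnar1 and Ifnar2, whose kinases JAK1 and TYK2 signal to a complex that includes STAT2 and IRF9. This complex binds the interferon-stimulated response element in the promoters of antiviral genes, and macrophages keep a low level of this signalling even when no virus is present. HDAC3 is a histone deacetylase of the nuclear receptor corepressor complexes, and IL-4, the cytokine of alternative activation, signals through STAT6.

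Promoter sequence was searched for the response element because the members are defined by their answer to interferon. RefSeq windows (build GRCm38.p6, 250 bases before to 50 after a gene's start) were held for 37 of the 49 members, and not for Dhx58, Ifi27, Mx1, Mx2, Oas1b, Oas2, Parp14, Parp9, Rtp4, Tor3a, Usp18 and Zbp1. The core GAAANNGAAA, read on either strand (TTTCNNTTTC on the other), was found in a window of 15 of these 37 members (40.5%) and of 3.99% of the 27025 genes in the table. The gamma-activated site TTCNNNGAA was found for 7 members (18.9%, against 9.55% of all genes), the STAT6 site TTCNNNNGAA for 6 (16.2%, against 8.01%) and the PU.1 site GAGGAAGT (or ACTTCCTC) for 4 (10.8%, against 3.69%). Cores that repeat every few bases overlap one another and are counted separately within a window.

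All 11 members with a core wholly before the start are shown with up to 25 bases on each side, ending at the start where that comes first, and the capitals mark the cores. They lie at chr4:156200850-156200921 (Isg15, minus strand), chr19:34640760-34640838 (Ifit1, plus), chr19:34583348-34583441 (Ifit3, plus), chr5:120777700-120777759 (Oas3, minus), chr5:120907526-120907570 (Oas1a, minus), chr5:120887614-120887656 (Oas1g, minus), chr8:71537562-71537627 (Bst2, minus), chr12:26456538-26456597 (Rsad2, minus), chr10:128270251-128270310 (Stat2, plus), chr11:78984945-78985004 (Lgals9, minus) and chr4:45972081-45972140 (the second window of Tdrd7, plus).
Isg15: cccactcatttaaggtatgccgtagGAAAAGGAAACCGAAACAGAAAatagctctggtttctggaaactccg
Ifit1: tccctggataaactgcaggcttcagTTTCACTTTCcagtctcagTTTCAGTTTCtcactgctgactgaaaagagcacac
Ifit3: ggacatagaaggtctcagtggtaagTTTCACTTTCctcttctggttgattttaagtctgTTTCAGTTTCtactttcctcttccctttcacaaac
Oas3: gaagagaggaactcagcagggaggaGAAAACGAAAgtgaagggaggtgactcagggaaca
Oas1a: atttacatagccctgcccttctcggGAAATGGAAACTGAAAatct
Oas1g: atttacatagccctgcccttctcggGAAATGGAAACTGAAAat
Bst2: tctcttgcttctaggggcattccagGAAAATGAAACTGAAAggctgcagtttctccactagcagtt
Rsad2: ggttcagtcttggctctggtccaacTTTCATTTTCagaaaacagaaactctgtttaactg
Stat2: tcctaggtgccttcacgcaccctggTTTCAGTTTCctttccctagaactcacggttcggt
Lgals9: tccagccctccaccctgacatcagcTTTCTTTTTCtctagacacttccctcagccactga
Tdrd7: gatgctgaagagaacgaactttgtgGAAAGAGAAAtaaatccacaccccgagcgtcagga

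Isg15 had 3 overlapping cores between 57 and 78 bases before the start, and Bst2 had 2 between 115 and 130 bases before it. Ifit1 and Ifit3 each had 2 separate cores on the other strand, the first of Ifit3 between 147 and 156 bases before the start. The stretches of the paralogs Oas1a and Oas1g have the same letters as far as the shorter goes. Lgals9 and Tdrd7 are shown because they hold a core, though neither was called in any comparison below. In Ddx58, Ifih1, Eif2ak2 and Trim21 the core lay after the start, between 2 and 41 bases past it.

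**Figure D1:**
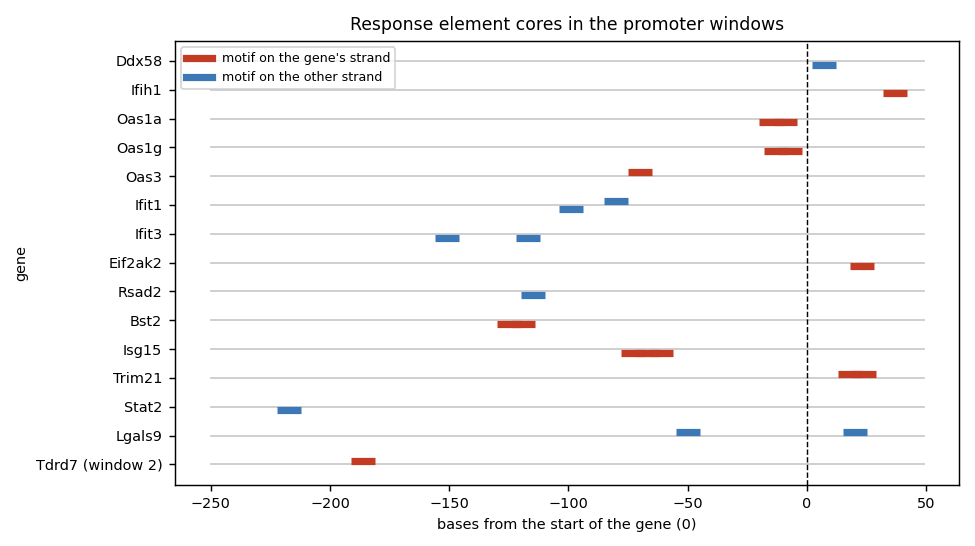
Positions of the response element core in the RefSeq promoter windows of 15 members, drawn as bases from the start of the gene (0, dashed line) on the x axis with 1 gene per line. Bars are matches, coloured by strand, and overlapping matches join into a longer bar; most lie within 156 bases before the start, with Stat2 at 222 and Tdrd7 at 191 bases farther out.

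Called members were found on both sides of the split by core. In vehicle, 11 of 14 tested members with a core and 18 of 21 without were called lower in KO cells, where 2.3% of all genes were called lower, with median log2 differences of -0.73 and -0.79. Under IL-4 the genotype counts were 12 and 15 (1.64% of all genes), with medians of -0.94 and -0.77. For IL-4 the medians were -0.37 for each in control cells, and -0.50 and -0.35 in KO cells. Between KO vehicle and control IL-4 they were -0.25 and -0.36. These are descriptions of the windows that were held, with no test.

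Hdac3, the targeted gene, had a log2 signal of -1.70, -2.14, -2.01 and -2.17 on the control vehicle arrays and -3.66, -3.11 and -3.46 on the KO vehicle arrays, with no overlap. Levels throughout are log2 signal minus the array's 75th percentile, so that 0 is that percentile. Its difference was -1.41 (SE 0.22, limma adjusted p = 0.00288), and -1.52 (SE 0.23, adjusted p = 0.00392) under IL-4, where the probe was well above background on only 2 of 3 KO arrays. Whether its probe lies within the floxed exons was not worked out. On the arrays, 56.2% to 83.2% of spots were well above background, lowest on control vehicle array 4 and next on KO IL-4 array 15, and no spot was saturated. All 7 macrophage markers listed were tested, led by Lyz2, and Csf1r and Itgam were higher and Fcgr1 lower in KO vehicle than in control vehicle cells.

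Almost the whole set was lower in resting cells that lacked HDAC3. Of 47 members, 40 were called lower in KO vehicle than in control vehicle arrays, where 2.3% of all genes were called lower, and none was called higher, against 2.47% of all genes. The median difference was -0.72 on the log2 scale, against 0.02 over all genes, and members ranged from -1.82 for Ifit3 to 0.18 for Pml. For 44 members every KO vehicle array lay below every control vehicle array, a pattern found in 7.92% of all genes. A call here means a limma adjusted p under 0.05, with Benjamini-Hochberg adjustment over all genes. In bulk RNA, fewer cells of a type and less RNA per cell cannot be told apart. Without KO vehicle array 5 the count was 23, and without KO vehicle array 6 it was 23, while 22 of the 40 were called under every alternative tried. Of those left uncalled, Rsad2, Mx1, Adar and Tdrd7 had negative differences, and Pml, Lgals9 and Trim25 positive ones.

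Under IL-4 the genotypes differed in the same direction. KO IL-4 arrays were lower than control IL-4 arrays for 38 members (1.64% of all genes were called lower) and higher for none (2.08%), with a median of -0.84 against -0.02 over all genes. The groups did not overlap, with KO lower, for 43 members and for 8.69% of all genes. These arrays are separate from the vehicle arrays, and 35 members were called lower in each comparison, which is 87.5% of the 40 and 92.1% of the 38. Among all genes, 1.19% were called lower in both. Epsti1, Ifi35, Isg20, Tor3a and Trex1 were called in vehicle only, and Adar, Mx1 and Rsad2 under IL-4 only. A fit of the 2 IL-4 groups alone, which takes no spread from the other arrays, called 12 members, and leaving out control vehicle array 4 and KO IL-4 array 15 together left 23. Under every alternative 12 of the 38 were called, namely Bst2, Ddx58, Ifi44, Ifih1, Ifit1, Ifit2, Ifit3, Oasl1, Oasl2, Rtp4, Ube2l6 and Xaf1.

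IL-4 lowered part of the set. In control cells 14 members fell after IL-4 (2.92% of all genes fell) and none rose (2.81%), with a median of -0.37 against 0.01 over all genes. The control IL-4 arrays lay wholly below the control vehicle arrays for 35 members and for 7.94% of all genes. In KO cells 17 members fell (1.03%) and none rose (1.2%), with a median of -0.48 against -0.04, and 33 did not overlap (9.16%). The fallen members shared by these separate sets of arrays were Cmpk2, Ifit2, Ifit3, Oas3, Oasl1, Parp12, Parp14, Rsad2, Ube2l6 and Xaf1, which are 71.4% of the 14 and 58.8% of the 17. Among all genes, 170 (0.827%) were called lower in both, out of 599 called lower in control cells and 212 in KO cells. Dhx58, Isg20, Trim21 and Usp18 passed only in control cells, and Ddx58, Ifi44, Ifit1, Oas1b, Oasl2, Rtp4 and Stat2 only in KO cells. The Oas1b probe was well above background on only 2 of 3 KO IL-4 arrays. The count in control cells was 8 without control vehicle array 1, 2 or 4, 6 without control vehicle array 3, and 6 without control IL-4 array 9. A slide block gave 7, median scaling 9 and normexp background correction 22. In KO cells it was 8 without KO vehicle array 6, 7 without KO vehicle array 7, 8 without KO IL-4 array 15, 9 with median scaling and 3 when the KO groups alone were fitted. Under every alternative 5 of the 14 were called in control cells, namely Ifit2, Ifit3, Isg20, Ube2l6 and Xaf1. In KO cells 3 of the 17 were, namely Ifit1, Ifit3 and Ube2l6.

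The median log2 level of the 47 members was 2.68 to 2.82 in control vehicle, 2.23 to 2.49 in control IL-4, 1.88 to 2.20 in KO vehicle and 1.34 to 1.72 in KO IL-4 cells. These ranges do not overlap, and the median over the members is lowest where both changes meet. Group means had the order control vehicle above KO vehicle and control IL-4, and both of these above KO IL-4, for 40 of 47 members and for 14.7% of all genes. The arrays of a group sat at the same place on their slides, so a group's place and its condition cannot be told apart. Within slides 1, 2 and 3 the median genotype difference in vehicle was -0.80, -0.74 and -0.54, and under IL-4 it was -0.66 and -0.98 within slides 1 and 2. The IL-4 difference in control cells was -0.43, -0.31 and -0.34 within slides 1, 2 and 4, and in KO cells it was -0.26, -0.42 and -0.70 within slides 1, 2 and 3.

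**Figure D2:**
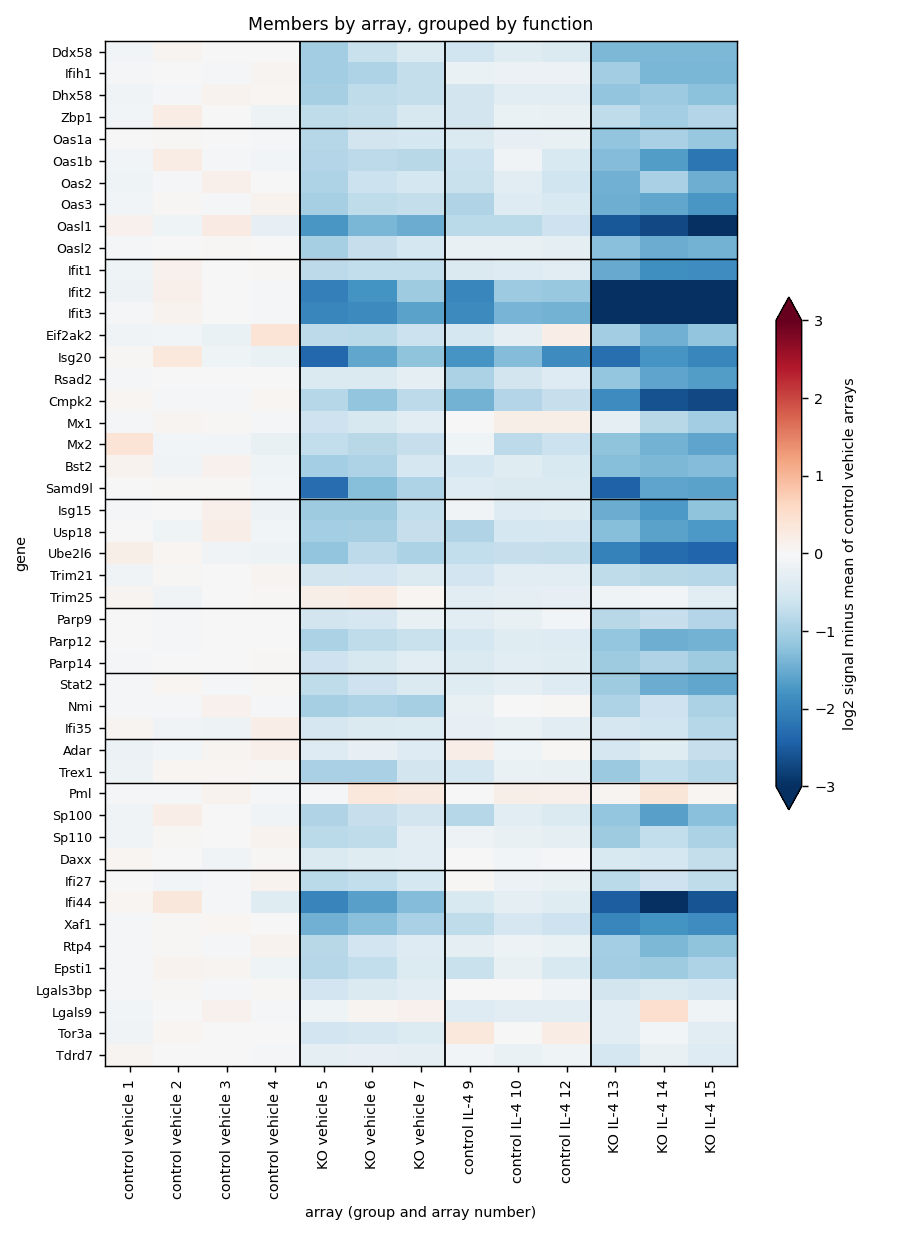
Signal of the 47 tested members (y axis, lines between function groups) on each of 13 arrays (x axis), as log2 signal minus the mean of the control vehicle arrays; differences beyond the ends of the colour scale take its end colours. Most genes are near white in control vehicle, bluer in KO vehicle and control IL-4, and darkest on the 3 KO IL-4 arrays, while Pml, Trim25 and Lgals9 show little blue.

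The sensors detect viral nucleic acid in the cytoplasm, and all 4 fell with HDAC3 loss in each treatment. Among all genes, 2.3% fell with it in vehicle and 1.64% under IL-4. Ifih1, the MDA5 receptor of long double-stranded RNA, stood at 3.56, 3.60, 3.54 and 3.68 on the control vehicle arrays, 2.55, 2.67 and 2.89 on KO vehicle, 3.39, 3.43 and 3.41 on control IL-4 and 2.54, 2.21 and 2.22 on KO IL-4 arrays. Its genotypes were apart in each treatment, by -0.89 (SE 0.11, adjusted p = 0.000658) in vehicle and -1.08 (SE 0.12, adjusted p = 0.000491) under IL-4, which left 54% and 47.1% of the control signal. IL-4 itself moved Ifih1 by only -0.18 in control cells (SE 0.11, adjusted p = 0.511). Dhx58, a helicase of the same family that regulates the others, was at 2.92, 2.96, 3.14 and 3.09 in control vehicle, 2.04, 2.26 and 2.31 in KO vehicle, 2.48, 2.69 and 2.69 in control IL-4 and 1.85, 1.94 and 1.80 in KO IL-4 arrays. It is the only sensor called for IL-4 in control cells, at -0.41 (SE 0.10, adjusted p = 0.0386), and that call was lost on leaving out any of 10 arrays, with adjusted p up to 0.155 without control IL-4 array 9. With the mean over its probes the vehicle genotype call was lost as well (adjusted p = 0.272). The dimmer second probe of Dhx58, well above background on 11 arrays, had 0.18 for IL-4 in control cells. Between genotypes that probe had -0.27 in vehicle and -0.93 under IL-4. Ddx58, the RIG-I receptor, fell by 0.71 in vehicle and 0.89 under IL-4, and Zbp1, which binds Z-form nucleic acid, by 0.65 and 0.57. The Zbp1 call in vehicle was lost without KO vehicle array 5 (adjusted p = 0.076) or 6 (0.0689), and that under IL-4 without any of 10 arrays (up to 0.162 without control IL-4 array 10).

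Active enzymes of the oligoadenylate synthetase family make the small oligoadenylates that activate RNase L. The family members listed here all lie on chromosome 5. All 6 that could be tested fell with HDAC3 loss in each treatment, against 2.3% of all genes in vehicle and 1.64% under IL-4. They fell by 0.64 to 1.53 on the log2 scale in vehicle and by 0.76 to 2.04 under IL-4. Oasl1, an oligoadenylate synthetase-like protein (probe at chr5:115387556-115387615, mm9), had 4.48, 4.22, 4.58 and 4.09 in control vehicle, 2.60, 2.98 and 2.86 in KO vehicle, 3.54, 3.54 and 3.72 in control IL-4 and 1.80, 1.64 and 1.23 in KO IL-4 arrays. The groups form 4 steps without overlap. Its genotype difference was -1.53 (SE 0.16, adjusted p = 0.000299) in vehicle and -2.04 (SE 0.17, adjusted p = 0.000158) under IL-4, leaving 34.6% and 24.3% of the signal. IL-4 lowered it by 0.74 (SE 0.16, adjusted p = 0.0178) in control cells and by 1.25 (SE 0.17, adjusted p = 0.00227) in KO cells. Leaving out control vehicle array 1 or 3 or control IL-4 array 9 or 10 put the control call at adjusted p of 0.0543 to 0.0705. The IL-4 call in KO cells was not made under every alternative either.

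Oas3, the largest synthetase of the family, was at 5.48, 5.60, 5.52 and 5.68 in control vehicle, 4.57, 4.80 and 4.86 in KO vehicle, 4.67, 5.18 and 5.11 in control IL-4 and 4.11, 4.02 and 3.83 in KO IL-4 arrays. Its KO vehicle and control IL-4 arrays overlap and lie between the other groups. It fell by 0.83 (SE 0.13, adjusted p = 0.004) with HDAC3 loss in vehicle and to 49.99% of the control signal (adjusted p = 0.00262) under IL-4, and by 0.59 (adjusted p = 0.0244) and 0.76 (adjusted p = 0.0167) with IL-4 in control and KO cells. The IL-4 calls were lost without control vehicle array 2, 3 or 4 or control IL-4 array 9 in control cells (adjusted p up to 0.0846) and without KO vehicle array 6 or 7 or KO IL-4 array 15 in KO cells (up to 0.0872). Oas1a, Oas1b, Oas2 and Oasl2 fell with HDAC3 loss in vehicle by 0.64, 0.83, 0.70 and 0.74. The dimmer second probe of Oas3 had -0.74 in vehicle but -0.32 under IL-4 between genotypes, and -0.26 for IL-4 in KO cells. The Oas2 call was lost without KO vehicle array 5 or 6 or control vehicle array 3 (adjusted p up to 0.106) and that of Oas1b without any of 7 arrays (up to 0.114). Members of this family are similar in sequence, so which member the Oas1a probe reports is uncertain, and laboratory strains are known to carry a truncated Oas1b.

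The effectors are proteins that act on viral RNA, translation or virus assembly. Of 11, HDAC3 loss lowered 9 in vehicle (2.3% of all genes) and 10 under IL-4 (1.64%). With IL-4 in control cells 5 fell (2.92%). Ifit3 belongs to a family of proteins that bind foreign RNA and is clustered with its relatives on chromosome 19 (probe at chr19:34663105-34663164, mm9). Its signal was 5.82, 5.95, 5.84 and 5.78 in control vehicle, 3.89, 3.95 and 4.24 in KO vehicle, 3.93, 4.44 and 4.44 in control IL-4 and 1.91, 1.64 and 1.53 in KO IL-4 arrays. KO vehicle and control IL-4 arrays lie together, far below control vehicle, and KO IL-4 arrays lie below all others. HDAC3 loss left 28.3% of the signal in vehicle (log2 difference -1.82, SE 0.15, adjusted p = 6.3e-05) and 16.8% under IL-4 (-2.57, SE 0.16, adjusted p = 2.72e-05). IL-4 left 33.5% in control cells (-1.58, SE 0.15, adjusted p = 5.98e-05) and 19.9% in KO cells (-2.33, SE 0.16, adjusted p = 1.84e-05). All 4 calls held under every alternative, and its near-identical copy Ifit3b may share this signal.

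Ifit2, of the same family, showed the same steps with more spread, at 3.15, 3.45, 3.31 and 3.26 in control vehicle, 1.25, 1.51 and 2.22 in KO vehicle, 1.33, 2.21 and 2.15 in control IL-4 and 0.15, -0.51 and -0.36 in KO IL-4 arrays. It differed by -1.63 (SE 0.26, adjusted p = 0.0039) and -2.14 (SE 0.28, adjusted p = 0.00166) between genotypes and by -1.39 (adjusted p = 0.00799) and -1.90 (adjusted p = 0.00384) with IL-4 in control and KO cells. Its dimmer second probe, well above background on 11 arrays, had -1.72 and -1.16 between genotypes, and -1.29 and -0.73 with IL-4. The IL-4 call of Ifit2 in KO cells was not made under every alternative. Ifit1 fell by 0.75 and 1.36 with HDAC3 loss. After IL-4 it moved by -0.38 in control cells (adjusted p = 0.0503) and fell by 0.99 in KO cells (adjusted p = 0.00053).

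Cmpk2, a nucleotide kinase gene beside Rsad2 on chromosome 12, was at 1.54, 1.44, 1.43 and 1.53 in control vehicle, 0.64, 0.29 and 0.69 in KO vehicle, 0.07, 0.60 and 0.79 in control IL-4 and -0.40, -1.14 and -1.22 in KO IL-4 arrays. HDAC3 loss and IL-4 each brought it to overlapping levels. The differences were -0.94 (SE 0.21, adjusted p = 0.0257) and -1.41 (adjusted p = 0.00494) between genotypes, and IL-4 left 50.04% of the signal in control cells (adjusted p = 0.0149) and 36.3% in KO cells (adjusted p = 0.00486). The genotype call in vehicle was lost without KO vehicle array 5 or 6 or any control vehicle array (adjusted p 0.0577 to 0.139), and the IL-4 call in control cells without control IL-4 array 9 (0.0694). The genotype call under IL-4 and the IL-4 call in KO cells were not made under every alternative either.

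Rsad2, the radical enzyme viperin, did not pass for HDAC3 loss in vehicle (-0.38, SE 0.15, adjusted p = 0.253) but was lower under IL-4 (-0.85, adjusted p = 0.0119) and with IL-4 in control (-0.63, adjusted p = 0.0295) and KO cells (-1.09, adjusted p = 0.00334). The call under IL-4 was lost without KO IL-4 array 15 or control IL-4 array 10 or 12 (adjusted p 0.0501 to 0.0569), and that for IL-4 in control cells without any control vehicle array or control IL-4 array 9 or 10 (0.0617 to 0.117). That for IL-4 in KO cells was not made under every alternative. The difference between these genotype effects did not pass (interaction -0.47, SE 0.22, adjusted p = 0.999). Isg20, an exonuclease that degrades RNA, was chosen for display after its values were seen. It had -0.51, -0.22, -0.67 and -0.73 in control vehicle, -2.88, -2.09 and -1.74 in KO vehicle, -2.30, -1.83 and -2.42 in control IL-4 and -2.79, -2.31 and -2.48 in KO IL-4 arrays. Control vehicle stands alone, and the other 3 groups overlap. The differences were -1.71 (SE 0.25, adjusted p = 0.00215) with HDAC3 loss in vehicle, -0.34 (SE 0.27, adjusted p = 0.628) under IL-4, and -1.65 (SE 0.25, adjusted p = 0.00192) with IL-4 in control cells.

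Samd9l fell by 1.49 in vehicle and 1.45 under IL-4, and Bst2, the tetherin that holds budding virus at the membrane, by 0.82 and 0.87. Eif2ak2, the RNA-activated kinase PKR that halts translation, fell by 0.74 and 1.02. Of the dynamin-like GTPase genes, Mx2 fell by 0.76 and 0.88. Mx1 had -0.47 (adjusted p = 0.157) in vehicle, where its other probe had -0.70, and fell by 0.84 under IL-4. C57BL/6 mice are known to carry a defective Mx1. Calls of Mx1, Mx2, Eif2ak2 and Samd9l were lost on leaving out single arrays, with adjusted p up to 0.185 (Eif2ak2 in vehicle), except that of Samd9l in vehicle.

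**Figure D3:**
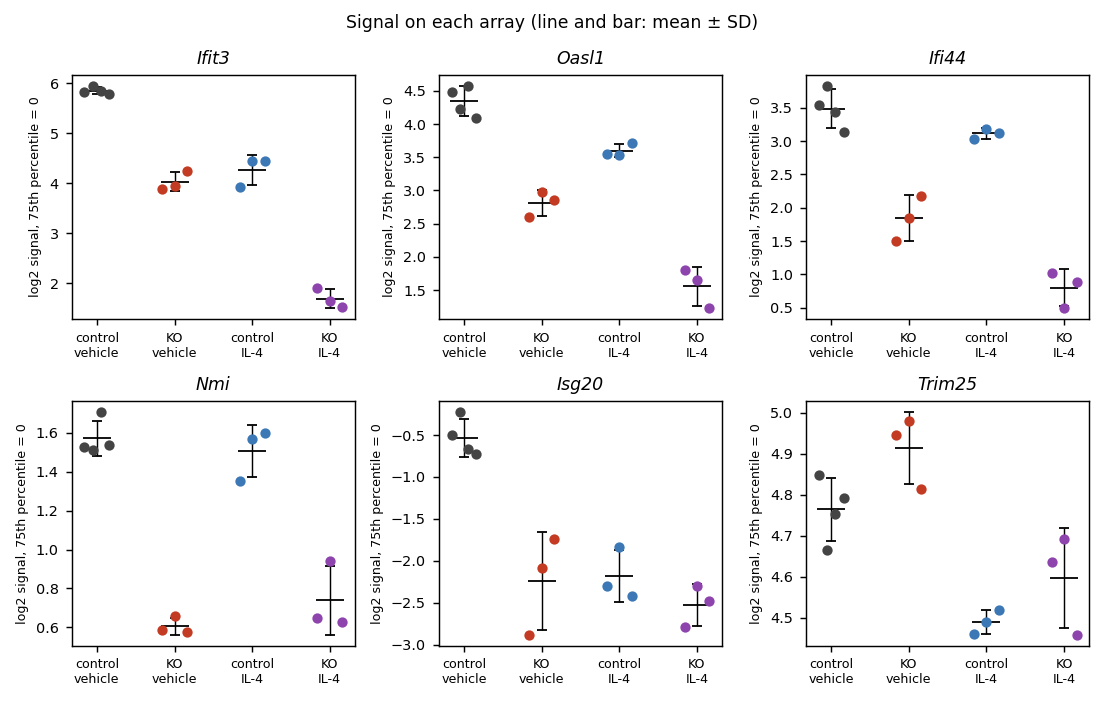
Log2 signal of 6 members on each array (y axis, 0 is the array's 75th percentile) in the 4 groups (x axis), with the mean and SD as line and bar. Ifit3 and Oasl1 fall in steps to a low in KO IL-4, Ifi44 and Nmi are low in both KO groups with control IL-4 near control vehicle, Isg20 is high in control vehicle alone, and Trim25 is highest in KO vehicle.

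In the ubiquitin-like system ISG15 is attached to proteins by the conjugating enzyme UBE2L6 and removed by USP18. All 3 genes fell with HDAC3 loss, against 2.3% of all genes in vehicle and 1.64% under IL-4. With IL-4 in control cells 3 of the 5 tested genes of the group fell (2.92% of all genes). Ube2l6 was at -0.26, -0.38, -0.54 and -0.59 in control vehicle, -1.62, -1.24 and -1.39 in KO vehicle, -1.17, -1.15 and -1.15 in control IL-4 and -2.47, -2.76 and -2.83 in KO IL-4 arrays. The 4 groups do not overlap. It fell by 0.97 (SE 0.12, adjusted p = 0.000897) and 1.53 (SE 0.13, adjusted p = 0.000194) with HDAC3 loss and by 0.71 (adjusted p = 0.00485) and 1.27 (adjusted p = 0.000397) with IL-4. Its 4 calls held under every alternative. Isg15 itself, whose arrays are printed by a choice made after its values were seen, was at 0.57, 0.61, 0.76 and 0.45 in control vehicle, -0.46, -0.47 and -0.15 in KO vehicle, 0.48, 0.22 and 0.23 in control IL-4 and -0.89, -1.12 and -0.60 in KO IL-4 arrays. Here the genotypes are apart in each treatment, by -0.96 (SE 0.14, adjusted p = 0.00201) and -1.19 (SE 0.15, adjusted p = 0.0012), while control vehicle and control IL-4 arrays overlap (-0.29, adjusted p = 0.388). Usp18 fell by 0.90 in each treatment with HDAC3 loss and by 0.64 with IL-4 in control cells, the last lost without control IL-4 array 9 (adjusted p = 0.106) or control vehicle array 1 (0.0585) or 3 (0.0701).

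The ubiquitin ligase genes were not alike in their calls. Trim21, an intracellular antibody receptor, fell by 0.51 in vehicle and 0.40 under IL-4, the latter lost without any of 12 arrays (adjusted p up to 0.17 without control IL-4 array 12). Trim25, which activates RIG-I, had 4.85, 4.67, 4.75 and 4.79 in control vehicle, 4.95, 4.98 and 4.81 in KO vehicle, 4.46, 4.49 and 4.52 in control IL-4 and 4.64, 4.69 and 4.46 in KO IL-4 arrays. No genotype difference was detected in vehicle (0.15, SE 0.09, adjusted p = 0.568) or under IL-4 (0.11, SE 0.09, adjusted p = 0.68). With IL-4 in control cells it had -0.28 (adjusted p = 0.119), and its other probe had 0.28 there.

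The 3 ADP-ribosyltransferase genes, whose enzymes mark proteins with ADP-ribose, fell with HDAC3 loss in each treatment. Among all genes, 2.3% fell with it in vehicle and 1.64% under IL-4. Parp12 was at 4.37, 4.32, 4.38 and 4.38 in control vehicle, 3.42, 3.59 and 3.70 in KO vehicle, 3.84, 4.01 and 3.97 in control IL-4 and 3.21, 2.91 and 2.95 in KO IL-4 arrays, 4 groups without overlap. It differed by -0.79 (SE 0.10, adjusted p = 0.000862) and -0.92 (adjusted p = 0.000803) between genotypes and by -0.43 (adjusted p = 0.0288) and -0.55 (adjusted p = 0.0202) with IL-4. Parp14 had 4.94, 5.03, 5.02 and 5.04, then 4.38, 4.53 and 4.66, then 4.56, 4.69 and 4.64, and 3.94, 4.10 and 3.93 in the same order of groups. Here too control vehicle is highest and KO IL-4 lowest, and the groups between them overlap. Its differences were -0.48 (adjusted p = 0.0105), -0.64 (adjusted p = 0.00386), -0.37 (adjusted p = 0.034) and -0.53 (adjusted p = 0.0139). The 2 dimmer probes of Parp14 had smaller ones, at -0.36 and -0.38 between genotypes in vehicle, -0.22 and -0.23 under IL-4, and -0.13 and -0.05 for IL-4 in KO cells. The IL-4 calls of both genes were lost without any array of the control vehicle or control IL-4 groups in control cells (adjusted p 0.056 to 0.121) and without KO vehicle array 6 or 7 or KO IL-4 array 15 in KO cells (0.0587 to 0.102), and Parp12 in KO cells also without KO IL-4 array 14 and Parp14 in control cells also without KO vehicle array 6. The vehicle genotype call of Parp14 was lost without KO vehicle array 5 (0.0736) or 6 (0.0523). Parp9 fell by 0.42 and 0.58 with HDAC3 loss, the former lost without any of 8 arrays (adjusted p up to 0.195).

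Among the signalling members, Stat2, a subunit of the interferon-activated complex, was at -0.01, 0.10, 0.02 and 0.07 in control vehicle, -0.71, -0.57 and -0.39 in KO vehicle, -0.33, -0.25 and -0.35 in control IL-4 and -1.01, -1.44 and -1.51 in KO IL-4 arrays. All 4 groups are apart. It fell by 0.60 (SE 0.12, adjusted p = 0.0159) and 1.01 (SE 0.13, adjusted p = 0.00154) with HDAC3 loss, the former lost without KO vehicle array 5 (adjusted p = 0.0971) or 6 (0.0743). With IL-4 it fell in KO cells (-0.76, adjusted p = 0.0101, but 0.0561 without KO vehicle array 7) and had -0.36 in control cells (adjusted p = 0.157).

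Nmi, a partner of STAT and MYC proteins (probe at chr2:51804095-51804154, mm9), differed by genotype, with no IL-4 difference detected. Its signal was 1.52, 1.51, 1.71 and 1.54 in control vehicle, 0.58, 0.66 and 0.58 in KO vehicle, 1.35, 1.57 and 1.60 in control IL-4 and 0.65, 0.94 and 0.63 in KO IL-4 arrays. Control arrays overlap with and without IL-4, and so do KO arrays. The genotype differences were -0.96 (SE 0.11, adjusted p = 0.000353) and -0.77 (SE 0.11, adjusted p = 0.00296), and the IL-4 differences -0.07 (adjusted p = 0.877) and 0.13 (adjusted p = 0.691). The genotype call under IL-4 was not made under every alternative. Ifi35, which binds NMI, fell by 0.45 in vehicle, a call lost without any of 12 arrays (adjusted p up to 0.209), and had -0.39 (adjusted p = 0.132) under IL-4.

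Trex1, the DNA exonuclease that clears cytoplasmic DNA, was at 0.21, 0.42, 0.42 and 0.38 in control vehicle, -0.61, -0.61 and -0.18 in KO vehicle, -0.16, 0.15 and 0.12 in control IL-4 and -0.75, -0.37 and -0.50 in KO IL-4 arrays. KO arrays lie below control arrays within each treatment. It fell by 0.83 (SE 0.14, adjusted p = 0.00469) in vehicle and had -0.58 (SE 0.15, adjusted p = 0.0574) under IL-4. Adar, which edits adenosine in double-stranded RNA, had -0.33 (adjusted p = 0.186) and fell by 0.55 under IL-4, a call lost without any of 7 arrays (adjusted p up to 0.12). The other Adar probe had -0.57 in vehicle and -0.45 under IL-4. For IL-4 in control cells it had -0.44, where the probe used had 0.03.

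Nuclear bodies gather PML with Sp100, Sp110 and Daxx. With HDAC3 loss 3 of these 4 genes, all but Pml, fell in each treatment (2.3% of all genes in vehicle and 1.64% under IL-4). Sp110 was at 3.63, 3.77, 3.74 and 3.84 in control vehicle, 2.93, 2.98 and 3.41 in KO vehicle, 3.60, 3.52 and 3.48 in control IL-4 and 2.67, 3.01 and 2.79 in KO IL-4 arrays. Sp100 was at 1.63, 1.93, 1.72 and 1.63, then 0.83, 1.03 and 1.18, then 0.88, 1.40 and 1.31, and 0.57, 0.09 and 0.47 in the same order. Both lay lower on every KO array than on every control array of the same treatment. Sp110 fell by 0.64 (adjusted p = 0.0139) and 0.71 (adjusted p = 0.0129), Sp100 by 0.72 (adjusted p = 0.0244) and 0.82 (adjusted p = 0.0201), and Daxx by 0.38 and 0.52. The Daxx call in vehicle was lost without any of 6 arrays (adjusted p up to 0.148). The Sp110 call in vehicle was lost without KO vehicle array 5 (0.0881) or 6 (0.0861), and that of Sp100 also without control vehicle array 2 or 3 (0.06 to 0.135). The Sp100 call under IL-4 was lost without KO IL-4 array 14 or control IL-4 array 10 or 12 (0.0735 to 0.0883), and neither Sp100 call was made with normexp background correction and quantile normalization (adjusted p = 0.964 and 0.805). That alternative chose the brightest probe anew, and whether it took another Sp100 probe was not worked out. Of the other Sp100 probes, one of similar brightness had -0.05 and -0.14, and a dimmer one -0.84 in each treatment. Pml itself had 0.18 (SE 0.11, adjusted p = 0.622) and 0.06 (SE 0.12, adjusted p = 0.876).

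Of the 9 remaining members, 7 fell with HDAC3 loss at rest (2.3% of all genes) and 5 when IL-4 was present (1.64%). Xaf1, which binds an inhibitor of apoptosis, was at 2.68, 2.77, 2.79 and 2.72 in control vehicle, 1.30, 1.49 and 1.77 in KO vehicle, 1.97, 2.24 and 2.11 in control IL-4 and 0.78, 0.94 and 0.89 in KO IL-4 arrays. Its 4 groups are apart, and KO arrays lie below control arrays in each treatment. It fell by 1.22 (SE 0.11, adjusted p = 0.000155) and 1.24 (SE 0.12, adjusted p = 0.000338) with HDAC3 loss, and by 0.63 (adjusted p = 0.00604) and 0.65 (adjusted p = 0.016) with IL-4, the last lost without any of 4 KO arrays (adjusted p up to 0.0626 without KO vehicle array 7). Ifi44, a cytoplasmic protein with antiviral activity (probe at chr3:151394035-151394094, mm9), was at 3.54, 3.83, 3.44 and 3.13 in control vehicle, 1.503, 1.85 and 2.18 in KO vehicle, 3.03, 3.19 and 3.12 in control IL-4 and 1.02, 0.49 and 0.89 in KO IL-4 arrays. The genotypes are far apart, and control cells overlap with and without IL-4. It fell by 1.64 (SE 0.19, adjusted p = 0.000543) and 2.31 (SE 0.21, adjusted p = 0.000208) with HDAC3 loss. With IL-4 it had -0.37 in control cells (adjusted p = 0.431) and fell by 1.04 in KO cells (adjusted p = 0.0215, up to 0.102 without KO vehicle array 7 and over the threshold also without KO vehicle array 6 or KO IL-4 array 14 or 15). The dimmer second probe of Ifi44, well above background on 12 arrays, had -0.80 in vehicle and -0.35 under IL-4 between genotypes. For IL-4 that probe had -0.44 in control cells and 0.02 in KO cells.

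Rtp4, Epsti1, Lgals3bp and Tor3a fell by 0.60, 0.67, 0.44 and 0.50 with HDAC3 loss in vehicle. All 4 calls were lost without KO vehicle array 5 or 6, with adjusted p up to 0.115 for Tor3a. Second probes had -0.39 for Epsti1 and -0.85 for Tor3a. Tdrd7 had -0.27 (adjusted p = 0.146) and Lgals9, a galectin, 0.03 (adjusted p = 0.997). Under IL-4 the genotype differences of Rtp4, Epsti1, Lgals3bp and Tor3a were -0.99, -0.57, -0.47 and -0.43. Rtp4 and Lgals3bp were called there, Rtp4 under every alternative, and Epsti1 and Tor3a were not. The array's probes for Ifi27 carry an accession that RefSeq now assigns to Ifi27l2a, and this signal fell by 0.69 (adjusted p = 0.0026) and 0.61 (adjusted p = 0.00996). The gene that RefSeq calls Ifi27 was measured by another probe, named D12Ertd647e in the files and not counted among the members. With HDAC3 loss it rose by 1.11 (adjusted p = 0.00383) in vehicle and 0.81 (adjusted p = 0.0392) under IL-4. It also rose by 0.71 (adjusted p = 0.0405) with IL-4 in control cells and had 0.41 (adjusted p = 0.422) in KO cells. The counts of members called higher do not include it.

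**Figure D4:**
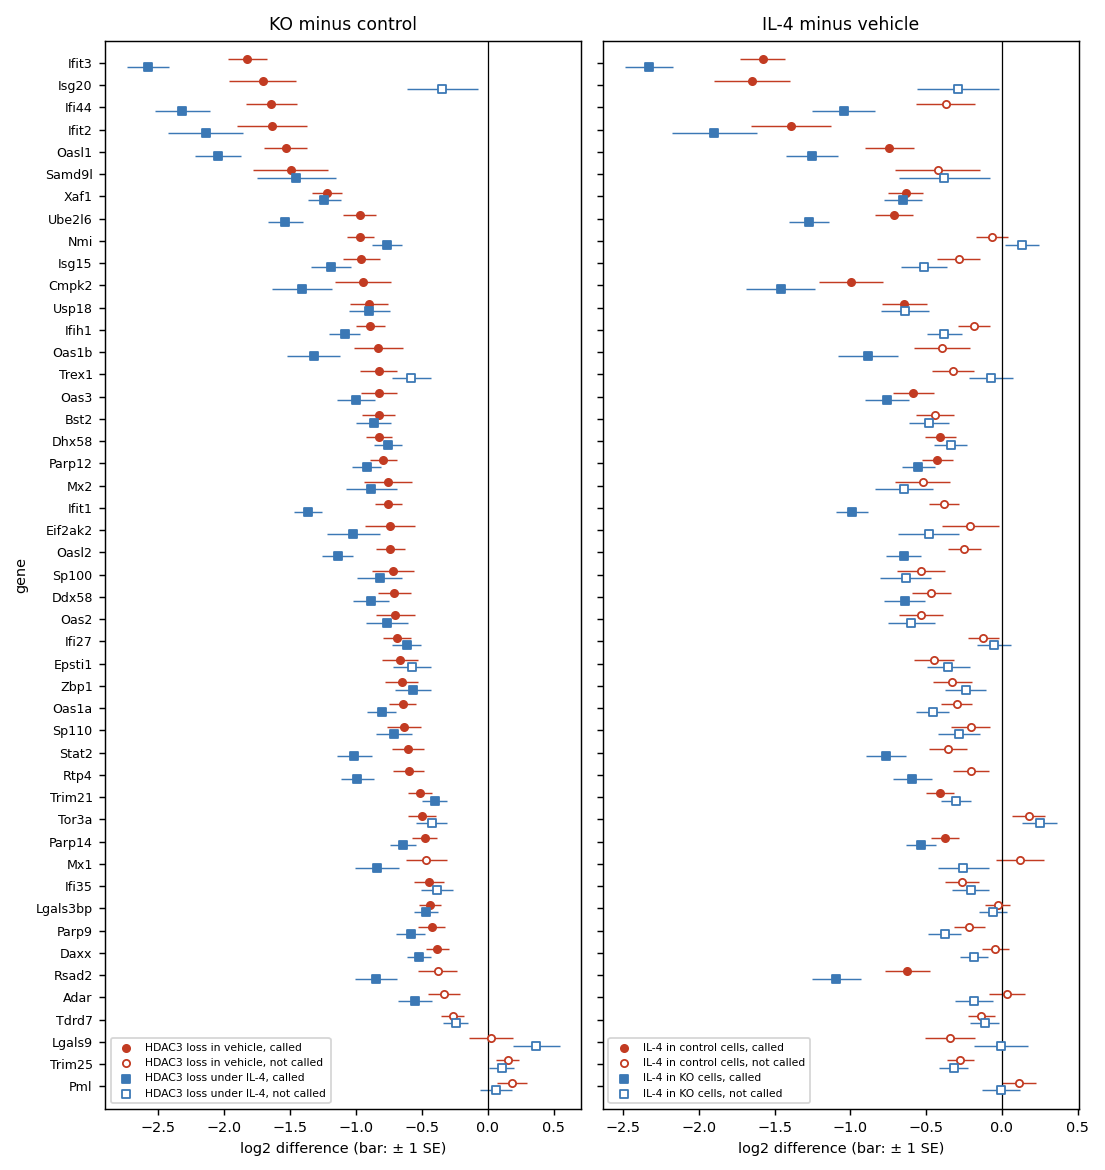
Log2 difference of each tested member (y axis, ordered by HDAC3 loss in vehicle) between genotypes on the left and between IL-4 and vehicle on the right (x axes, bars are 1 SE); filled symbols passed the limma test. On the left, 40 red and 38 blue symbols are filled and to the left of 0; on the right 14 red and 17 blue ones are.

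HDAC3 loss at rest was then set directly against IL-4 in control cells, KO vehicle minus control IL-4, to ask which change took a member lower. KO vehicle arrays were called lower for 11 members (2.78% of all genes) and higher for 1 (3.1%), and 27 did not overlap with KO vehicle lower (11.1% of all genes). The median was -0.34 against 0.02 over all genes. Of those called, Ifi44 was lowest, at -1.27 (SE 0.21, adjusted p = 0.00314), followed by Nmi at -0.90 (SE 0.11, adjusted p = 0.000524) and Oasl1 at -0.79 (SE 0.17, adjusted p = 0.0187). The others were Ifih1 (-0.71), Tor3a (-0.68), Isg15 (-0.67), Xaf1 (-0.58), Ifi27 (-0.57), Oasl2 (-0.49), Dhx58 (-0.42) and Lgals3bp (-0.41), and of these the calls of Isg15, Xaf1, Ifi27, Oasl2, Dhx58 and Lgals3bp were lost on leaving out single arrays (adjusted p up to 0.201, Dhx58 without KO vehicle array 5). Trim25 was higher in KO vehicle, at 0.42 (SE 0.09, adjusted p = 0.0209), and its other probe had 0.10. The dimmer second probe of Ifi44 had -0.37. Samd9l had -1.07 (SE 0.30, adjusted p = 0.0649). For Ifit3 (-0.24, SE 0.16), Ifit2 (-0.24, SE 0.28), Isg20 (-0.05, SE 0.27) and Cmpk2 (0.06, SE 0.23) no difference was detected, which does not show that the levels are equal. Ifi44, Ifih1, Nmi and Tor3a were called under every alternative. The count of 11 was 4 without KO vehicle array 5, 6 without KO vehicle array 6, 7 without control IL-4 array 10 and 6 without control IL-4 array 12, and Oasl1 had adjusted p of 0.0929 without KO vehicle array 5, 0.0504 without KO vehicle array 7 and 0.0813 without control IL-4 array 12. Trim25 passed in neither median scaling nor the mean over probes, nor without KO vehicle array 5 or 6 or any control IL-4 array.

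**Figure D5:**
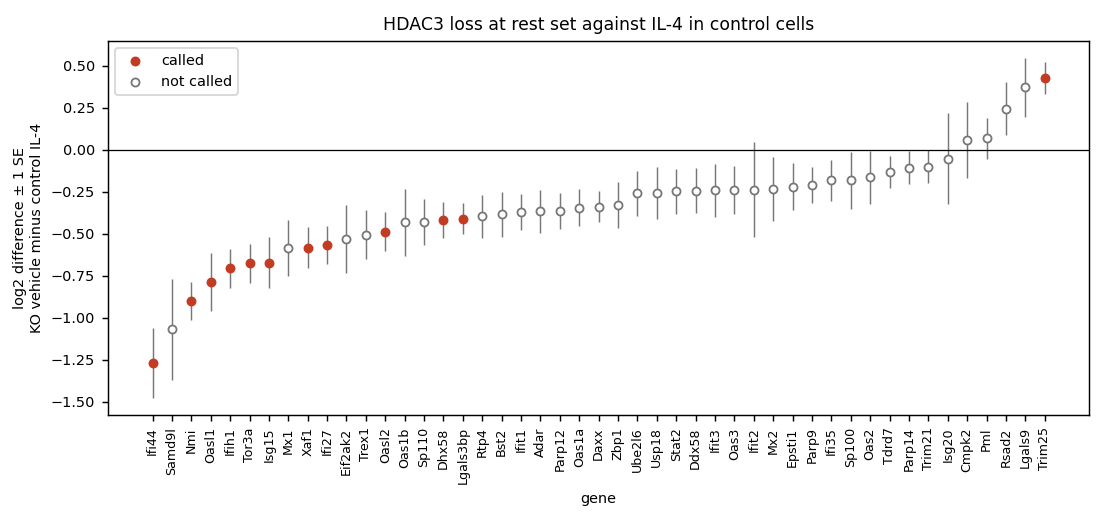
KO vehicle minus control IL-4 as a log2 difference with 1 SE (y axis) for each of 47 members (x axis, ordered by the difference); filled points passed the limma test. The filled points are 11 below 0, with Ifi44 at -1.27 the lowest, and Trim25 at 0.42 above it.

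The interaction, which asks whether IL-4 acted differently in the genotypes, was called for no member, with limma, and for 0.00487% of all genes, which is 1 gene. At an unadjusted p under 0.05 there were 8 members and 801 of all genes. Of these 8, Ifi44, Ifit1, Ifit3, Oasl2, Rtp4, Stat2 and Ube2l6 had a more negative IL-4 difference in KO cells and Isg20 a less negative one (1.36, SE 0.37, adjusted p = 0.816). Ifit1 had the smallest adjusted p among them, at 0.712. The groups of 3 and 4 arrays give SEs of 0.12 to 0.41 for this term among the members.

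Of 40 other genes of the interferon pathway, chosen by role, 36 were tested, and 6 fell and 1 rose with HDAC3 loss in vehicle (2.3% and 2.47% of all genes), against 4 and 2 under IL-4 (1.64% and 2.08%). Over the alternatives the fallen ranged from 1 to 8 in vehicle and from 1 to 5 under IL-4. Of the interferons, the probes of Ifnb1, Ifng and Ifne were well above background on 0 arrays, and that of Ifna4 on 3. Ifna2 (0.24, adjusted p = 0.795) and Ifnab (-0.05, adjusted p = 0.991) had no genotype difference past the threshold in vehicle. Their probes may read several of the near-identical interferon alpha genes. Of the receptors, Ifnar1 was at 2.65, 2.39, 2.44 and 2.51 in control vehicle and 2.72, 2.63 and 2.58 in KO vehicle arrays, which overlap (0.14, SE 0.10, adjusted p = 0.645). Ifnar2 had -0.10 (adjusted p = 0.935). The interferon gamma receptor gene Ifngr1 rose by 0.36 (adjusted p = 0.0498) and 0.48 (adjusted p = 0.0204), the former lost without any of 11 arrays and the latter without any of 4. Neither Jak1 (0.11, adjusted p = 0.785) nor Tyk2 (0.17, adjusted p = 0.859) passed.

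The genes of the transcription factors that carry the signal are known to be interferon-stimulated too. Irf9 was at 3.01, 3.00, 3.03 and 2.97 in control vehicle, 2.56, 2.72 and 2.73 in KO vehicle, 2.70, 2.81 and 2.77 in control IL-4 and 2.36, 2.31 and 2.22 in KO IL-4 arrays. Its genotype differences were -0.33 (SE 0.08, adjusted p = 0.036, lost without any of 9 arrays, up to 0.21 without KO vehicle array 5) and -0.46 (SE 0.09, adjusted p = 0.0107). Irf7, which amplifies interferon production, was at 0.23, 0.55, 0.41 and 0.27 in control vehicle, -1.32, -0.66 and -0.33 in KO vehicle, -1.19, 0.02 and -0.34 in control IL-4 and -1.75, -1.60 and -1.21 in KO IL-4 arrays. It fell by 1.14 (SE 0.28, adjusted p = 0.0432) in vehicle, a call lost without any of 10 arrays, and had -1.01 (SE 0.30, adjusted p = 0.115) under IL-4. Irf8, by contrast, had 0.44 (adjusted p = 0.0818) and rose by 0.64 under IL-4 (adjusted p = 0.0214, up to 0.0917 without control IL-4 array 10). Tlr3, the endosomal RNA receptor, fell by 0.63 (adjusted p = 0.0221, up to 0.0962 without KO vehicle array 5) and 0.94 (adjusted p = 0.00407).

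Socs1 encodes an inhibitor of JAK kinases and is a known target of STAT6. It was at -2.15, -2.20, -2.28 and -2.69 in control vehicle, -3.48, -3.08 and -2.62 in KO vehicle, 0.26, 0.25 and 0.13 in control IL-4 and -0.69, -0.75 and -0.58 in KO IL-4 arrays. IL-4 raised it by 2.54 (SE 0.18, adjusted p = 1.11e-05) in control and 2.38 (SE 0.20, adjusted p = 7.93e-05) in KO cells, the opposite direction to the members that fell. Its part in their fall was not tested. The vehicle arrays of the genotypes overlap. With HDAC3 loss it was lower by -0.73 (adjusted p = 0.0466) and -0.88 (adjusted p = 0.0289), calls that were lost without any of 11 and any of 6 arrays. In control cells IL-4 also raised Jak2 by 0.91, Irf2 by 0.41 and Tmem173, the STING adaptor, by 0.52, and lowered Ptpn6, Socs3, Myd88 and Tlr7. With Socs1, 4 of the 36 tested pathway genes rose there (2.81% of all genes) and 4 fell (2.92%). Over the alternatives each of these counts ranged from 2 to 6. In KO cells Jak2 rose by 0.58 (adjusted p = 0.0685 without KO vehicle array 7) and Irf9 fell by 0.37, a call lost without any of 12 arrays.

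Plasmacytoid dendritic cells are known for making interferon, so the level of their markers is given beside the genotype result. Of 4 markers, Siglech was well above background on 5 arrays and was not tested. The summed linear level of the other 3, relative to the 75th percentile, was 2.7 to 3.1 on control vehicle arrays and 2.27 to 2.82 on KO vehicle arrays, and 2.97 to 3.46 and 2.86 to 2.99 under IL-4. Cox6a2 alone among them fell in vehicle (-0.51, adjusted p = 0.0325), and none did under IL-4. The part of such cells in the members' differences was not tested.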

How the data were processed

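The deposited files give linear intensity values of each spot in a single dye, and per the file headers Agilent Feature Extraction 10.5.1.1 read them (version 9.53 per the submitters' processing notes, which also name limma), with probe positions in mm9. The deposited value table, linear intensity values with column medians of 179 to 180 (whose making is not given in the sources used here), correlated with the scanner log2 values at 0.998 or more and served as an alternative. From gProcessedSignal, the background-corrected intensity, log2 values minus each array's 75th percentile were computed. Outlier spots were dropped, a probe was kept if every array of some group had it well above background (29059 of 41174), and the brightest probe of a gene was used, named through RefSeq accessions (25097 probes). Group means were fitted with limma 3.58.1 (R 4.3.3; two-sided moderated test over 13 arrays). The fit was tested on simulated data. The number of arrays limits the precision. Members, lists, the interferon pathway list and the comparisons were chosen with earlier results of these data known. Arrays are printed for members with the smallest adjusted p of a function group (HDAC3 loss in vehicle, IL-4 in control cells), those called in all 4 main comparisons, higher in any, or with the 3 largest differences among those called between KO vehicle and control IL-4; Isg15 and Isg20 were added after their values were seen. Promoters came from RefSeq (GRCm38.p6), with no coordinate converted. Alternatives changed scaling, background correction, source of values, dim-probe filter, probe rule, slide block, groups fitted and arrays included, and are given after the results. The result of 1 gene of the pathway list is not reported here.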

Additional observations from a re-analysis of the deposited data

Results flagged for a closer look

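In the control vehicle group, the only group of 4 arrays, single arrays stood apart for 3 of 47 members by Dixon's ratio; chance alone puts about 1 group in 20 past it. Oas1b was at -1.89 on control vehicle array 2 against -2.21 to -2.19 on the others. Nmi was at 1.71 on control vehicle array 3 against 1.51 to 1.54. Pml was at 2.79 on control vehicle array 3 against 2.66 to 2.67.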

How the results depend on the processing

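No difference of a member that passed the test changed sign under any of the alternatives. Every median difference of the set kept its direction and moved by less than 0.145, the SD of an array's median over members. The counts of members called lower moved more. For HDAC3 loss under IL-4 (38) the count was 12 with only the compared groups fitted and 23 without the 2 arrays with the fewest spots well above background (control vehicle 4 and KO IL-4 15), an alternative chosen after seeing the data. For IL-4 in control cells (14) it was 9 with median scaling, 22 with normexp and quantile normalization, 7 with slide as a fixed block and 8 without those 2 arrays. For IL-4 in KO cells (17) it was 9 with median scaling, 3 with only the compared groups and 7 without those 2 arrays. Between KO vehicle and control IL-4 (11) it was 7 with slide as a fixed block and 5 with only the compared groups, and the 1 member called higher was 0 with median scaling, the mean of probes or only the compared groups. Fewer arrays estimate the spread when only 2 groups are fitted; the cause of the other moves was not tested. Leaving out each array in turn gave 23 to 39 members called lower for HDAC3 loss in vehicle, 27 to 39 under IL-4, 6 to 16 for IL-4 in control cells, 7 to 18 in KO cells, and 4 to 13 lower and 0 to 1 higher between KO vehicle and control IL-4. Where such a fit leaves all groups with at least 2 arrays, the spread is still pooled over groups. The labels do not say which arrays of different groups belong together, and the array numbers run on from group to group. Slides, which hold arrays of several groups, served as the block instead. Dim probes limit Oas1g, Ifnb1, Ifng, Ifne and Ifna4, which were not well above background on most arrays.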
